A study of Mus musculus with 50 samples.

Results

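The genes described here encode the enzymes that write and erase chemical marks on histones and DNA. They were chosen by symbol: every gene of the count files whose name was Kdm, Kmt, Kat, Hdac, Dnmt, Tet, Setd, Ezh, Suv39h or Prmt, followed by a number and at most further letters. The rule gave 73 of 24984 genes. Of these, 72 were enzymes or enzyme homologues and 1, Dnmt3aos, was a non-coding antisense gene of Dnmt3a that the pattern also caught. The 72 comprised 8 lysine acetyltransferases and 11 deacetylases, 20 writers and 18 erasers of lysine methylation, 4 DNA methyltransferase genes and 3 Tet genes, and 8 arginine methyltransferases, for which the rule held no eraser.

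Acetyltransferases and deacetylases add and remove acetyl groups on histone tails, and acetylated histones mark active promoters and enhancers. Lysine methylation is read by its position: methylated H3K4 lies at active promoters, H3K36 along transcribed genes, and H3K27 and H3K9 in silent chromatin. Dnmt1 copies DNA methylation after replication, Dnmt3a and Dnmt3b place it anew, and the Tet dioxygenases oxidise it. The DNA methylation pattern shifts with age in many mammalian tissues, and both kidney and liver are built largely of cells that rarely divide.

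RNA was measured in 38 libraries of 10 groups and open chromatin by ATAC-seq, a method in which a transposase cuts accessible DNA and inserts sequencing adapters, in 12 libraries of 4 groups. Untreated C57BL/6 mice gave young kidney and young liver at 2.5 months and old kidney and old liver at 23 to 25 months, with 4 RNA and 3 ATAC libraries in each group. Mice of 20 to 21 months given DMSO or the agent labelled 3C gave kidney and liver, with 4 RNA libraries in each group. Skin fibroblasts labelled P9, given DMSO or 3C, had 3 RNA libraries each. The mice that gave kidney and liver were female. The labels spell out neither what 3C is nor what P9 stands for. Nothing in the labels says that the fibroblast libraries came from separate cultures, so their p-values measure the spread between these libraries only. Untreated and DMSO or 3C libraries were counted with different settings and were not tested against each other.

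Gene totals ran from 14238228 to 43704147 reads per library. The defining markers matched the labels: the 5 tubule markers summed to 11952 CPM (reads scaled to a common library total) or more in each kidney library and to at most 15.585 CPM in liver and fibroblasts. One library stood apart. In old kidney replicate 2 the 5 hepatocyte markers summed to 3159.6 CPM, against 89.893 CPM in the lowest old kidney and at most 115 CPM in the young kidneys, and each kidney age result that rested on it is given with and without this library. The 9 leukocyte markers also moved with age. They summed to 80.033 to 102.11 CPM in young kidneys and 542.29 to 731.14 CPM in old ones, and to 112.13 to 139.97 CPM in young livers and 213.02 to 428.39 CPM in old ones. The summed tubule markers were lower in old kidneys, at 13606 to 14182 CPM beside 14751 to 17515 in young ones, though 2 of 5 had a fold change above 0 and 1 was called lower. The hepatocyte markers summed to 115770 to 187100 CPM in young livers and 64213 to 129810 in old ones, with 0 of 5 above 0 and 1 called lower. The part of these markers in the age results was not tested, and in bulk tissue fewer cells of a type and less RNA per cell cannot be told apart.

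Promoter windows, from 250 bases before to 50 bases after a RefSeq start site (GRCm38.p6), were given for 61 of the 73 genes. Motif letters were searched on both strands. These 30-base stretches are shown because each holds, in capitals, a motif near the start of a gene that the results return to, and because AP-1 and ETS are the factors the study is about. The first 3 hold an E2F motif (TTTGGCGC or TTTCCCGC, the latter read from the other strand in Kmt5c), of the factors that switch on genes of DNA replication. The next 4 hold an AP-1 motif (TGANTCA), Prmt9 holds a CRE (TGACGTCA), and the last holds an ETS motif (CCGGAAGT, read from the other strand). Each is written 5′ to 3′ on the strand of its gene.
Dnmt1, chr9:20952574-20952603, minus strand: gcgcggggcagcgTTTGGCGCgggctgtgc
Ezh2, chr6:47595009-47595038, minus strand: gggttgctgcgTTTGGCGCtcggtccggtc
Kmt5c, chr7:4740011-4740040, plus strand: ggccagaagagGCGGGAAAaagagagcaat
Kat2b, chr17:53566721-53566750, plus strand: cacacaccatTGAGTCAtctccctccctct
Kdm4a, chr4:118180215-118180244, minus strand: ctatggagatcTGAGTCAgcctctgatagg
Kdm5c, chrX:152233145-152233174, plus strand: aggtttttttcTGACTCAaagtaaacggaa
Kat8, chr7:127912830-127912859, plus strand: ggccagggtggTGACTCAggtaagaaggcg
Prmt9, chr8:77549342-77549371, plus strand: gctccctggtgTGACGTCAtcacagcgctt
Setd4, chr16:93603943-93603972, minus strand: taagcaggagcACTTCCGGtgggcctggcg

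The E2F letters were found in 3 of the 61 genes (4.92%) against 1.80% of all 27025 genes with a window, and these were Dnmt1, which maintains DNA methylation, Ezh2, the H3K27 methyltransferase of the Polycomb complex PRC2, and Kmt5c, an H4K20 methyltransferase. The AP-1 letters were found in 8 genes (13.1% against 8.97%), the CRE in 2 (3.28% against 2.03%) and the ETS letters in 4 (6.56% against 4.31%). The CRE letters cannot match the AP-1 letters, which are 1 base shorter between the same ends, so the searches did not overlap. Shorter words were commoner in both: the NF-Y letters CCAAT stood in 45.9% against 41.1% and the SP letters GGGCGG in 67.2% against 38.2%. The windows overlap between start sites of 1 gene and a match is a description of letters only. Called ATAC peaks covered the printed motif in 12 of 12 libraries for Dnmt1, Ezh2, Kdm4a, Prmt9 and Setd4, in 11 for Kat8, 10 for Kmt5c, 9 for Kdm5c and 6 for Kat2b.

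To compare levels between genes, counts were divided by the exon length of each gene and scaled to the same sum in each library, as transcript abundance (TPM). Most of the enzymes were transcribed in each group: between 62 and 66 of the 72 reached a mean of 1 TPM. In young kidney 42 reached 10 TPM and in young liver 15, and the DMSO groups had 53 in kidney, 29 in liver and 34 in fibroblasts. The untreated and treated groups are set side by side here, not compared, because their libraries were handled differently.

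**Figure D1:**
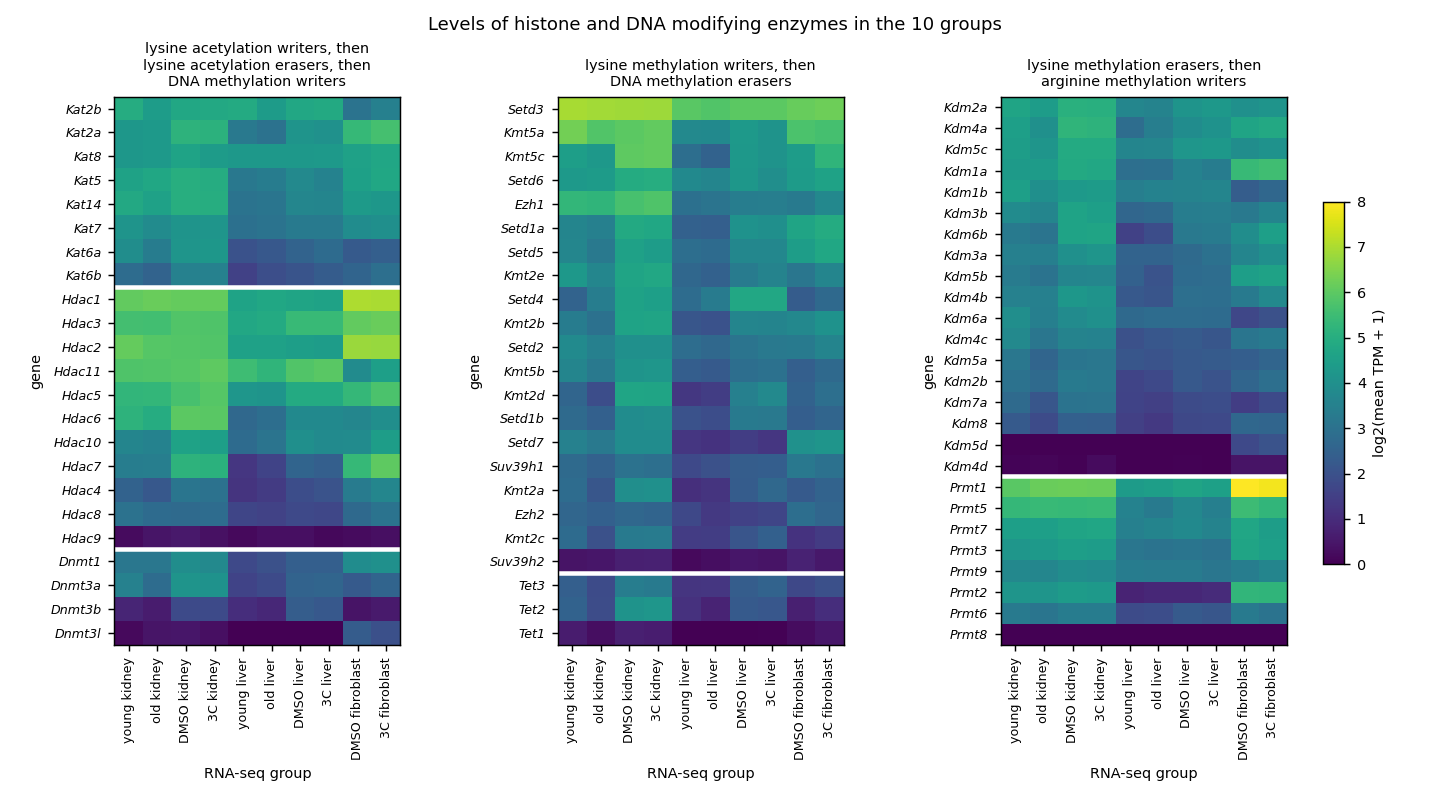
Mean TPM of the enzymes (rows, by class) in the 10 RNA groups (columns), on a log2 colour scale. Setd3 has the highest mean in each tissue group, at 56.1 to 124 TPM, and Prmt1 in both fibroblast groups, at 289 and 234 TPM, while Prmt8 is blank.

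Setd3, which despite its SET domain is known as the histidine methyltransferase of actin, had the highest mean TPM of the set in all 8 tissue groups. It reached 124 ± 8.98 TPM in young kidney (SD, n = 4), 117 ± 8.0 in old kidney, 61.0 ± 3.61 in young liver and 56.1 ± 10.8 in old liver. Behind it in young kidney stood Kmt5a, the H4K20 monomethyltransferase, at 77.8 ± 7.15 TPM, then the class I deacetylases Hdac2 (68.3) and Hdac1 (66.1) and the main arginine methyltransferase Prmt1 (60.4). In young liver the order was Hdac11, the single class IV deacetylase, at 44.7 ± 9.5 TPM, then the acetyltransferase Kat2b, the deacetylase Hdac3, and Hdac1. The spreads of Kmt5a, Hdac2, Hdac1 and Prmt1 overlapped between neighbours in young kidney.

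Fibroblasts had another order. Prmt1 was first at 289 ± 21.2 TPM in the DMSO group and 234 ± 11 in the 3C group (SD, n = 3). Hdac1 followed at 127 ± 15 TPM, Hdac2 at 110 ± 5.99, Setd3 at 69.4 ± 6.37 and Hdac3 at 67.1 ± 5.74 in DMSO fibroblasts. The spreads of Hdac1 and Hdac2 overlapped, as did those of Setd3 and Hdac3. In the treated tissues the H4K20 enzyme Kmt5c stood among the first 5 in kidney, at 64.1 ± 1.73 TPM with DMSO and 67.3 ± 2.01 with 3C, and Setd4, a SET domain protein, among the first 5 in DMSO liver, at 26.7 ± 4.32.

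At the other end, Prmt8, known from brain, had 1 read in 1 old kidney library and 0 in the rest. Kdm4d, an H3K9 demethylase known from testis, had at most 31 reads over any group, and Dnmt3aos at most 10. Dnmt3l, the partner of Dnmt3a and Dnmt3b that has no catalytic activity of its own, had 359 reads in DMSO fibroblasts, 34 in DMSO kidney and 0 in DMSO liver. Kdm5d, an H3K4 demethylase encoded on the Y chromosome, had 431 reads in DMSO fibroblasts, 478 in 3C fibroblasts and 0 in all 32 tissue libraries. Tet1 was below the filter in the liver fits, with 3 reads over the 4 old livers.

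The first question was whether these enzymes differed between young and old tissue. In kidney 68 members passed the filter on low counts, and Dnmt3aos, Dnmt3l, Kdm4d, Kdm5d and Prmt8 did not. By edgeR's quasi-likelihood test with Benjamini-Hochberg adjustment over all 14495 genes, 1 member was higher and 1 lower in old kidney, where 8.15% of all genes tested were higher and 3.36% lower. Both were lysine methyltransferase genes. At an unadjusted p under 0.05 there were 11 (16.2%, beside 30.1% of all genes). DESeq2 called Setd4 higher and Kmt5a, Tet1, Dnmt3a, Kat2b, Kdm1b and Kdm4c lower, where it called 11.1% of all genes higher and 9.58% lower.

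Setd4 rose in old kidney. Its gene lies on the minus strand at chr16:93583460-93603815. In CPM after TMM scaling within the comparison, a correction for library composition, it had 4.53, 3.06, 4.65 and 5.51 in young kidneys and 12.4, 6.55, 10.9 and 6.72 in old ones. The groups did not overlap, and the 4 old kidneys split into a higher pair, replicates 1 and 3, and a lower pair, replicates 2 and 4. The log2 fold change was 1.04 (SE 0.27, adjusted p = 0.0363, edgeR). Markers of other cells split the old kidneys the same way. In replicates 1 and 3 the 5 cycling markers summed to 15.2 and 15.4 CPM, the 5 fibroblast markers to 245 and 299 CPM and the 4 endothelial markers to 185 and 169 CPM. In replicates 2 and 4 they summed to 38.8 and 34.0, 463 and 528, and 284 and 253 CPM. The young kidneys had 14.5 to 17.0, 260 to 286 and 218 to 302 CPM. The part of these markers in the Setd4 value was not tested.

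Kmt5a, which places the first methyl group on H4K20 and is needed for chromosome condensation, fell in old kidney. Its gene lies on the plus strand at chr5:124439930-124462311. The young kidneys had 121, 119, 123 and 123 CPM and the old ones 105, 88.7, 87.1 and 85.3 CPM. The young libraries lay close together and above each old one. The log2 fold change was −0.41 (SE 0.10, adjusted p = 0.0239, edgeR).

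Both calls were lost on leaving out any of several single libraries, while the direction of the change was kept. Setd4 was no longer called without young kidney replicate 1, 2 or 3 or old kidney replicate 1 or 3, with log2 fold changes of 0.86 to 1.05. Kmt5a was no longer called without young kidney replicate 1, 2 or 3 or old kidney replicate 4, with −0.38 to −0.43.

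Among the members that missed the edgeR threshold, most lay below 0. The median log2 fold change over the 68 was −0.215 and 23 lay above 0, while the median of all genes was 0.021. With a trend on exon length and GC content removed the medians were −0.089 and −0.007. By class, 3 of 16 erasers of lysine methylation, 4 of 20 writers of lysine methylation, 3 of 8 acetyltransferases, 6 of 11 deacetylases, 0 of 3 Tet genes and 6 of 7 arginine methyltransferases lay above 0. Tet1 had 4.90, 3.10, 2.29 and 4.61 CPM in young kidneys and 1.07, 2.35, 0.852 and 1.86 in old ones (log2 −1.27, SE 0.38, adjusted p = 0.0604, edgeR). The groups overlapped through young replicate 3 and old replicate 2. Dnmt3a had 62.3, 54.4, 46.1 and 35.7 CPM in young kidneys and 25.1, 45.0, 20.2 and 31.3 in old ones (log2 −0.71, SE 0.25, adjusted p = 0.0955, edgeR). With the length and GC trend removed Dnmt3a was called at −0.39 (adjusted p = 0.0281, edgeR), and so was Kmt5c.

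**Figure D2:**
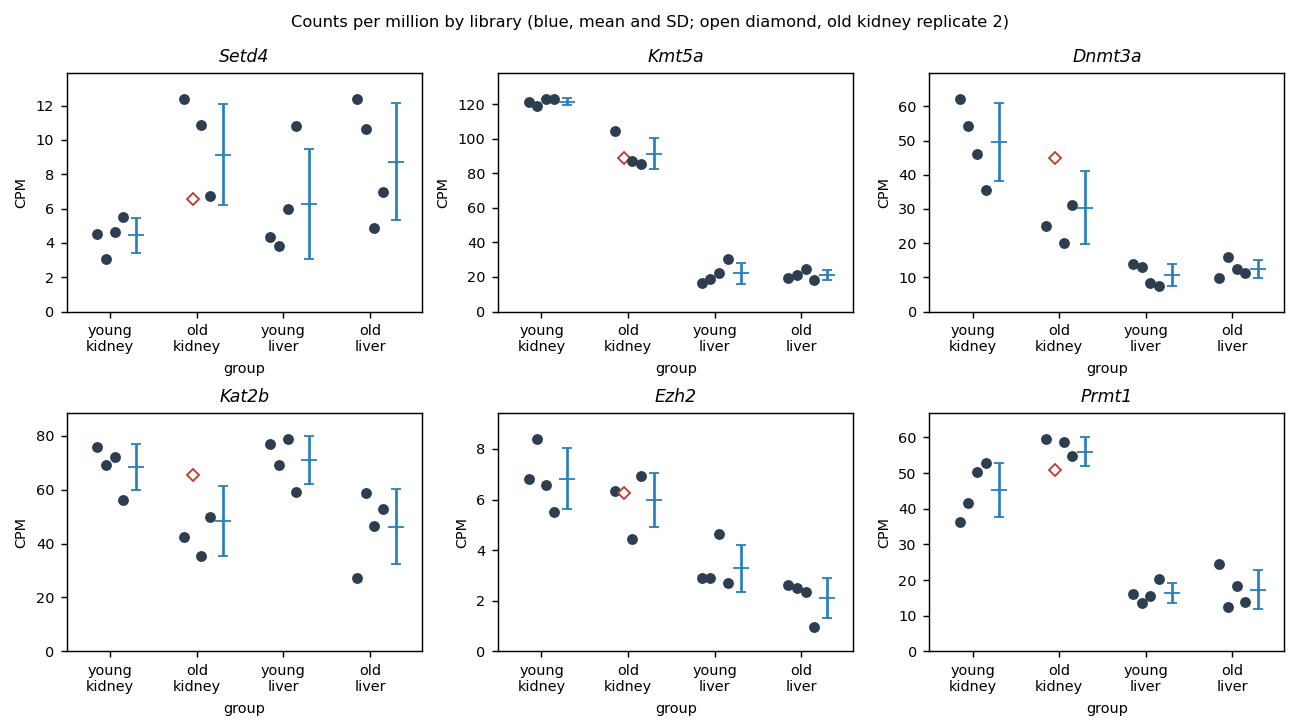
CPM in each library of young and old kidney and liver for the members shown, scaled within the fit of each tissue, so that levels are not comparable between tissues. The open red diamond is old kidney replicate 2, which lies at 45.0 CPM for Dnmt3a and 65.5 CPM for Kat2b, above the 3 other old kidneys.

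Old kidney replicate 2, the library with hepatocyte reads, lay nearest the young kidneys for many members. The members took 0.2881% of its gene reads and 0.1938% in the lowest old kidney. Without it, 20 members were lower and 1 higher of 68 (edgeR, adjusted over all genes), where 12.2% of all genes were lower and 11.5% higher. The median of the members was −0.294 and that of all genes 0.029. The erasers among the 20 were all 3 Tet genes (Tet3 −1.21, Tet1 −1.53, Tet2 −1.07) and the demethylases Kdm1b, Kdm4a, Kdm4c, Kdm5a, Kdm5c, Kdm6a and Kdm7a. The writers were Dnmt3a (−0.96, SE 0.21, adjusted p = 0.0131), the H3K4 methyltransferases Kmt2a (−1.24), Kmt2c (−1.50) and Kmt2d (−1.19), Kmt2e, Kmt5a, Kmt5b and Setd5, and the acetyltransferases Kat2b (−0.68) and Kat6a (−1.04). Kmt2c shows how far single libraries reach: young kidneys had 79.2, 52.2, 38.9 and 19.2 CPM and old ones 15.1, 44.9, 13.8 and 21.1. Old replicate 2 lay above 2 of the young kidneys. Of the 20, Kmt2e shares 12.2% of its exon bases with Srpk2, Kdm1b 10.3% with Dek, Kdm7a 3.0% with 4930599N23Rik and Kdm5a 2.5% with Ccdc77.

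The 20 were longer in the median, though Kmt5a, at 3178 bases, was near the median of all genes. Their median exon length was 9236.5 bases and median GC content 46.5%, against 3946.5 bases and 52.6% for the other 48 members and 3043 bases and 50.4% for all genes tested. With a trend on length and GC also removed, 6 were lower (Kmt5a, Dnmt3a, Kat2b, Tet3, Kdm4a and Kdm1b) and 1 higher (Setd4), beside 10.5% and 10.4% of all genes, and the median of the members was −0.101. For Dnmt3a the value was then −0.47 (adjusted p = 0.00973, edgeR) and for Setd4 0.84 (adjusted p = 0.0273). What part length, GC content or the hepatocyte reads had in the other calls was not tested.

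In liver 67 members were tested, the same less Tet1. None was called in either direction by edgeR or by DESeq2, where edgeR called 1.91% of all genes higher and 0.558% lower and DESeq2 4.94% and 1.91%, and 4 (5.97%) had an unadjusted p under 0.05, beside 14.7% of all genes. The smallest p belonged to Kat2b, a coactivator of the GCN5 family, with 76.9, 69.3, 78.9 and 59.1 CPM in young livers and 27.1, 58.9, 46.5 and 52.7 in old ones. Each old liver lay below each young one. The log2 fold change was −0.62 (SE 0.23, adjusted p = 0.218, edgeR). With the length and GC trend removed the adjusted p was 0.0391, and that of Kdm5b 0.0466, where 3.7% of all genes were higher and 1.62% lower. Kmt5c (−0.53, SE 0.21), Kdm4a (0.57, SE 0.24) and Kdm5b (−0.64, SE 0.27) followed. Kdm4a, an H3K9 and H3K36 demethylase, had 14.2, 22.1, 17.9 and 11.2 CPM in young livers and 19.9, 21.0, 31.9 and 24.8 in old ones. Its groups overlapped.

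The 67 members had a median of −0.051 in liver, near the 0.003 of all genes. A direct test of the difference between the age effects of liver and kidney, an interaction, was fitted over all 16 untreated libraries. No member was called by edgeR in either direction (0.871% of all genes higher and 0.845% lower in liver than in kidney) and 4 (5.88%) had an unadjusted p under 0.05, beside 14% of all genes. DESeq2 called Kdm4a (adjusted p = 0.0489), as did edgeR with the length and GC trend removed (adjusted p = 0.0384), where 2.24% and 1.51% of all genes were called higher. Kdm4a was first, with an interaction of 1.11 (SE 0.34, adjusted p = 0.116, edgeR), then Dnmt3a with 0.97 (SE 0.36, adjusted p = 0.21). The Setd4 and Kmt5a age effects were therefore not shown to be particular to kidney.

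**Figure D3:**
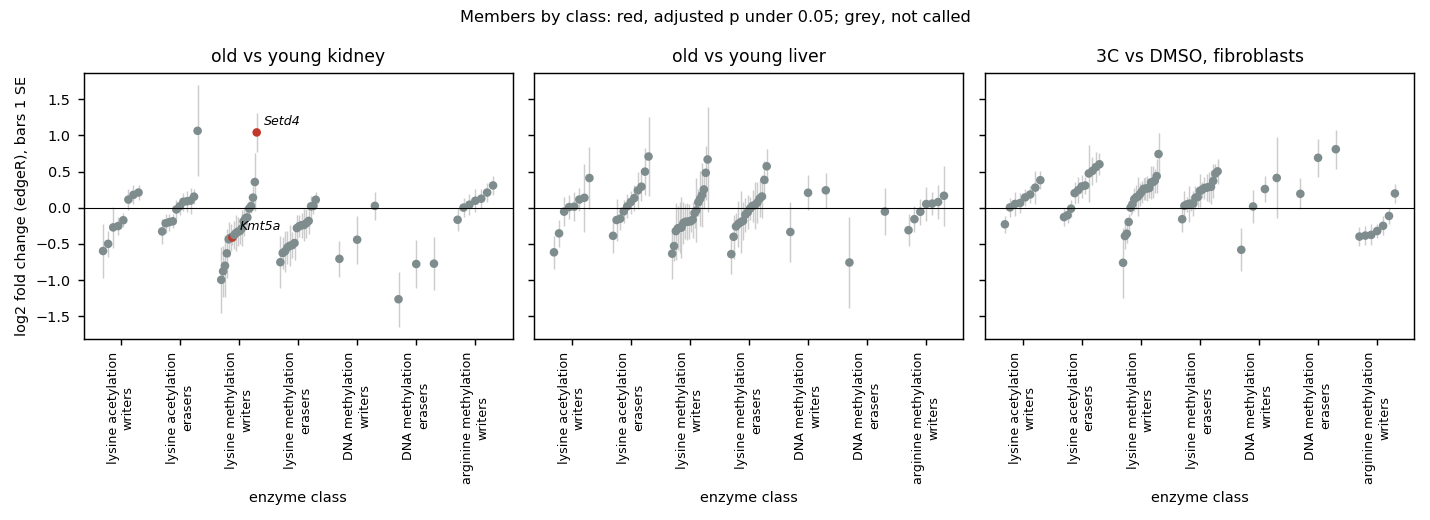
Log2 fold change of each member tested (points), by class, with its SE as a bar. Shown are old against young kidney, old against young liver, and 3C against DMSO in fibroblasts. Red points were called by edgeR, and these are Setd4 and Kmt5a in kidney. The kidney age points sit mostly below 0, with 23 of 68 above it, and the 3C fibroblast points mostly above 0, with 54 of 70.

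Totals of writers and erasers were compared within each library, which needs no scaling between libraries. The value is the log2 of summed writer TPM over summed eraser TPM. It depends on how many genes each side has, so only differences between groups can be read, and no test was run on it.

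For lysine acetylation the ratio was −1.17 ± 0.14 in young kidney, −1.30 ± 0.13 in old kidney, −0.89 ± 0.27 in young liver and −1.02 ± 0.20 in old liver (SD, n = 4). Old and young libraries overlapped in both tissues. DMSO kidney had −1.13 ± 0.10 and DMSO liver −1.03 ± 0.18. The fibroblasts were lowest, at −1.70 ± 0.08 with DMSO and −1.69 ± 0.09 with 3C (SD, n = 3), and each fibroblast library lay below each tissue library. With the median of log2(TPM + 1) in place of the sum this order did not hold: DMSO fibroblasts were then at 0.09 and DMSO kidney at −0.97. The foremost deacetylase of each library, Hdac1 or Hdac2, made up 29.1% of the summed deacetylase TPM on average in DMSO fibroblasts, and the foremost in DMSO kidney, Hdac1 or Hdac6, 16%.

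For lysine methylation the groups lay close together. The ratio was 0.95 ± 0.16 in young kidney, 1.09 ± 0.28 in old kidney, 0.87 ± 0.32 in young liver, 0.77 ± 0.32 in old liver and 0.64 ± 0.13 in DMSO fibroblasts. Setd3, counted as a writer here by its symbol class although its known substrate is actin, took 30.9% of the summed writer TPM in young kidney and 41.0% in young liver. Without it and the foremost eraser of each library the ratios were 0.60 in young kidney, 0.68 in old kidney, 0.34 in young liver, 0.24 in old liver and 0.60 in DMSO fibroblasts.

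For DNA methylation the group means ran from 0.25 in 3C kidney to 2.82 in DMSO fibroblasts. Fibroblasts had 2.82 ± 0.10 with DMSO, from 2.74 to 2.93, and 2.43 ± 0.03 with 3C, from 2.42 to 2.47. No tissue library exceeded 2.30. This separation was lost without the foremost writer and eraser of each library, where 3C fibroblasts had 2.14 to 2.69, young liver replicate 4 had 3.90 and old liver replicate 1 had 3.25. DMSO kidney had 0.37 ± 0.23 and DMSO liver 0.80 ± 0.43, and their libraries overlapped. Old kidneys had 1.57 ± 0.29, from 1.23 to 1.93, and young kidneys 1.07 ± 0.28, from 0.83 to 1.41, and the groups overlapped through old replicate 2 alone. Without it old kidneys had 1.68 ± 0.21 (SD, n = 3), from 1.55 to 1.93, above each young kidney. In kidney both totals had lower means in the old group: writers 19.3 ± 4.58 TPM in young and 15.2 ± 6.73 in old, and Tet genes 9.61 ± 3.85 in young and 5.42 ± 3.37 in old. Without old replicate 2 the old means were 12.3 ± 4.51 and 3.88 ± 1.65 TPM. The Tet genes have 9205 to 14354 exon bases and the writers 2670 to 9947. The part of exon length in the kidney difference of this ratio was not tested.

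**Figure D4:**
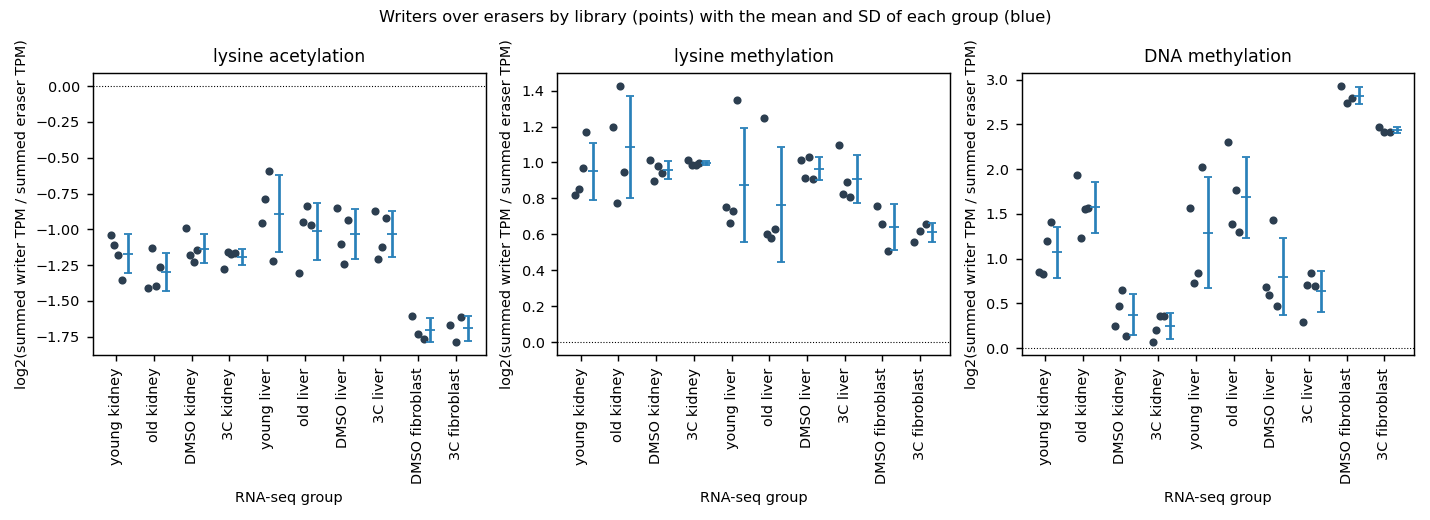
Log2 of summed writer TPM over summed eraser TPM in each library (points), with group means (bars), for lysine acetylation, lysine methylation and DNA methylation in the 10 RNA groups. Fibroblast libraries lie at −1.79 to −1.61 for acetylation and at 2.42 to 2.93 for DNA methylation, outside the tissue libraries for both.

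Kidney and liver were compared in independent libraries, first of young untreated animals and then of DMSO animals. The scaling matters here. The mean TMM factor was 1.457 in young kidney and 0.689 in young liver, and 1.366 and 0.672 in the DMSO groups, so that TMM moves each kidney gene down against liver. By library size alone the median of all genes was 1.158 in young and 1.09 in DMSO tissue, against 0.078 and 0.069 by TMM. Changes below are relative to the TMM centre, with the value by library size alone where it differs in sign.

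Of 68 members tested in young tissue, 24 were higher in kidney and 7 lower (edgeR), where 35.1% of all genes were higher and 30.2% lower. In DMSO tissue 24 of 70 were higher and 16 lower, where 37.5% and 32.8% of all genes were. By library size alone the counts were 60 and 0 in young tissue (74.3% and 11.2% of all genes) and 63 and 2 in DMSO tissue (75.3% and 11.1%). With the length and GC trend removed they were 16 and 25 (38.6% and 32.9% of all genes), and 16 and 29 (39% and 33.8%). The median of the members was 0.278 in young tissue, where all genes had 0.078, and 0.168 in DMSO tissue, where all genes had 0.069. With the length and GC trend removed the members turned below all genes, at −0.046 beside 0.104 in young and −0.136 beside 0.1 in DMSO tissue. Called in both were 17 higher members (70.8% of each list) and 7 lower ones (all of the young list and 43.8% of the DMSO list), and 0 were called in opposite directions.

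Prmt2, an arginine methyltransferase and nuclear receptor coactivator, had the smallest p in both. On the TMM scale of the young comparison it had 13.9, 12, 11.4 and 13.1 CPM in kidneys and 1.0, 1.46, 1.29 and 1.04 in livers. The groups were far apart, with a log2 fold change of 3.38 (SE 0.21, adjusted p = 3.78e-08, edgeR) and 3.42 (SE 0.17) in DMSO tissue. Per length it was at 17.1 ± 2.29 TPM in young kidney and 0.723 ± 0.204 in young liver.

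Tet1 was higher by 4.61 (SE 0.59) in young and 3.88 (SE 0.45) in DMSO kidney, from 3.37, 2.11, 1.55 and 3.11 CPM in young kidneys and 0.0626, 0.233, 0.0719 and 0 in young livers. With 3 or fewer reads in most livers its fold is loosely fixed. Setd7, which monomethylates H3K4 and many other proteins, had 29.8, 29.0, 25.6 and 17.9 CPM in young kidneys and 9.08, 8.69, 6.83 and 5.72 in young livers (1.75, SE 0.21, and 1.84, SE 0.17, in DMSO tissue). Ezh1, the PRC2 methyltransferase of non-dividing cells, had 59.5, 48.8, 51.3 and 53.2 CPM in young kidneys and 25.4, 24.7, 17.0 and 18.3 in young livers (1.32, SE 0.16, and 1.24, SE 0.13). None of these groups overlapped.

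Also higher in kidney in both, by library size alone too, were the deacetylases Hdac6 (1.49 and 1.11), known for acting on tubulin, Hdac7 (1.59 and 1.66), Hdac4 and Hdac2, the DNA methyltransferases Dnmt1 (0.59 and 0.56) and Dnmt3a (1.14 and 0.64), the H4K20 enzymes Kmt5a (1.4 and 0.59) and Kmt5c, and Kat14, Kat6a, Kdm6b, Kmt2a and Prmt5. Many of these calls did not hold with the length and GC trend removed. In young tissue Hdac7 (0.57, adjusted p = 0.0529, edgeR), Kmt2a (0.30) and Kmt5c (0.05) lost the call and Dnmt1 (−0.07), Hdac4 (−0.02) and Kdm6b (−0.14) turned below 0. In DMSO tissue Dnmt1 (0.08), Dnmt3a (0.06), Kat14 (0.02), Kat6a (0.29) and Kmt5c (0.25) lost it, Hdac4 (−0.16) and Kmt2a (−0.0042) turned below 0, and Kdm6b became lower in kidney (−0.47, adjusted p = 0.00259, edgeR). Hdac2 in DMSO tissue (0.28) also lost its call without any 1 of kidney replicates 1, 3 and 4, liver replicates 2 and 3 and fibroblast replicate 3, with 0.20 to 0.28. Some members share exon bases with another gene, and counts without strand cannot tell such reads apart: of those named in these comparisons, Kat14 shares 7.3% with Pet117, Kat8 6.8% with Prss8, Setd6 4.6% with Cnot1, Prmt2 3.8% with Mir678, Setd7 1.0% with 5031434O11Rik and Hdac7 0.6% with Slc48a1. Dnmt3l, with 34 reads in DMSO kidney and 0 in DMSO liver, was at least 12.2-fold higher in kidney, against a floor of 3 reads over the liver group.

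The 7 members lower in kidney in both were Kat2b, Hdac11, Kat8, Setd4, Dnmt3b, Prmt9 and Setd6. By library size alone Prmt9 (0.31 and 0.49) and Setd6 (0.46 and 0.60) turned to higher in kidney in both comparisons, Hdac11 (0.18) did in young and Kat8 (0.27) in DMSO tissue, and Kat2b (−0.05 and −0.11), Setd4 (−0.44 and −0.31) and Dnmt3b (−0.58 and −0.85) stayed below 0. Setd6 lost its call in DMSO tissue with the length and GC trend removed (−0.25, adjusted p = 0.0559, edgeR). Kat2b had 52.1, 47, 48.6 and 38 CPM in young kidneys and 110, 98.0, 112 and 84.3 in young livers on the TMM scale (−1.13, SE 0.14, and −1.13, SE 0.09, in DMSO tissue). Per length its level was alike, at 26.7 ± 0.574 TPM in DMSO kidney and 26.5 ± 4.58 in DMSO liver. The lower Kat2b value in kidney is thus one relative to the other genes.

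Setd4 had 3.11, 2.08, 3.14 and 3.72 CPM in young kidneys and 6.26, 5.42, 8.56 and 15.4 in young livers (−1.56, SE 0.34, and −1.33, SE 0.11). Dnmt3b had 0.878, 1.04, 1.4 and 1.17 CPM in young kidneys and 3.32, 5.25, 3.74 and 1.41 in young livers (−1.62, SE 0.38, and −1.89, SE 0.24). Young liver replicate 4 was nearest the kidneys for Dnmt3b and farthest for Setd4.

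In young tissue a replicate block was also fitted, though whether equal numbers mark the same animal is not known. It called 5 of the followed members that the unblocked fit did not. Tet2 (1.09, adjusted p = 0.0145, edgeR), Tet3 (0.52, adjusted p = 0.0219) and Prmt1 (0.40, adjusted p = 0.0108) were higher in kidney. Kdm5c (−0.29, adjusted p = 0.0455) and Hdac3 (−0.34, adjusted p = 0.0165) were lower. By library size alone all 5 were higher in kidney. With the length and GC trend removed and no block, Tet3 was called lower in kidney (−0.44, adjusted p = 0.0172, edgeR). Without the block their adjusted p-values were 0.221, 0.124, 0.0516, 0.112 and 0.0557.

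Fibroblasts in culture were compared with each DMSO tissue, and the 2 comparisons share the 3 DMSO fibroblast libraries. Against kidney 24 members of 70 were higher and 34 lower in fibroblasts (35.8% and 43.5% of all genes), and against liver 21 and 34 (38.4% and 40.8%). By library size alone the counts against liver turned to 38 higher and 12 lower (54.5% and 26.8% of all genes), while those against kidney were 14 and 39 (28.8% and 49.8%). Cells also differed in cycling: the 5 cycling markers summed to 115.22 to 137.79 CPM in DMSO fibroblasts, 12.949 to 26.718 in DMSO kidneys and 4.8233 to 11.344 in DMSO livers. The part of cycling in these differences was not tested.

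The arginine methyltransferases were mostly higher in fibroblasts, 6 of 7 tested against kidney and 5 of 7 against liver, where Prmt9 was lower (−0.68, but 0.07 by library size alone). The counts were 4 higher and 1 lower against kidney, and 6 and 0 against liver, by library size alone. Prmt1 was the foremost, at 211, 183 and 216 CPM in fibroblasts, 39.5, 37.7, 36.8 and 37.2 in kidneys and 30.5, 25.8, 29.9 and 26.9 in livers. The log2 fold change was 2.43 (SE 0.10) against kidney and 2.85 (SE 0.10) against liver. Prmt2 had 37.1, 37.0 and 40.5 CPM in fibroblasts, above both tissues (1.33 and 4.75).

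The class I deacetylases Hdac1 and Hdac2 were also higher than in both tissues. Hdac1 had 108, 118 and 124 CPM in fibroblasts, 46.7, 48.2, 43.6 and 45.8 in kidneys and 34.5, 37.9, 36.4 and 38.1 in livers (1.34, SE 0.09, and 1.67, SE 0.09). Hdac2 had 111, 92.1 and 106 CPM in fibroblasts and at most 42.8 in either tissue (1.39 and 1.67). The other two of the class were less apart. Hdac3 was higher than in kidney (0.69) and at 0.01 against liver (adjusted p = 0.971, edgeR), where library size alone gave 0.76. Hdac8 was higher by 0.41 and 0.54, the first of which was 0.13 (adjusted p = 0.467) by library size alone. Kdm1a, the flavin-dependent H3K4 demethylase that sits in complexes with Hdac1 and Hdac2, was higher by 0.99 and 1.21, and the H3K4 demethylase Kdm5b by 1.34 and 1.1. Not all deacetylases went this way: Hdac11 was at 13.6, 16.4 and 17.2 CPM in fibroblasts against 46.3 to 54.0 in kidneys and 83.4 to 154 in livers (−1.69 and −2.79), and Hdac6 (−1.97 and −0.86), Hdac9 and Hdac10 were lower too by TMM (against kidney, Hdac10 not with the length and GC trend removed, and Hdac9 not without DMSO fibroblast replicate 1 or 2), while by library size alone 7 of 11 deacetylases were higher and 1 lower than in liver.

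The large H3K4 methyltransferases were lower in fibroblasts by TMM. Kmt2c had 8.67, 10.7 and 9.49 CPM in fibroblasts, 57.8, 48.0, 48.7 and 52.0 in kidneys and 48.4, 41.8, 26.7 and 50.3 in livers (−2.42 and −2.12). Kmt2d (−2.0 and −1.83) and Kmt2a (−1.51 and −0.77) were lower as well. The mean TMM factor was 1.125 in DMSO fibroblasts and 0.672 in DMSO liver, so the −0.77 of Kmt2a against liver is relative to the TMM centre. Over all lysine methyltransferases 12 of 20 were lower and 4 higher against kidney, and 13 and 3 against liver, which by library size alone became 13 and 1 against kidney, and 5 and 6 against liver. The demethylases split: 9 of 17 lower and 4 higher against kidney, and 8 and 4 against liver, or 11 and 3, and 2 and 10, by library size alone. Lower by either scaling was the X-linked H3K27 demethylase Kdm6a, at 5.10, 7.73 and 6.01 CPM in fibroblasts, 26.7 to 28.8 in kidneys and 18.6 to 33.2 in livers (−2.14 and −2.12). The Y-linked Kdm5d had reads in the fibroblasts and none in the tissues, so sex and cell type cannot be told apart for Kdm6a.

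The PRC2 pair moved apart. Ezh2, the form of dividing cells, had 7.14, 8.47 and 8.22 CPM in fibroblasts, 3.38, 5.79, 6.18 and 4.23 in kidneys and 5.11, 3.61, 3.03 and 3.69 in livers (0.70, SE 0.23, and 1.03, SE 0.24). Ezh1 had 17.0, 21.2 and 14 CPM in fibroblasts, 69.6 to 75.1 in kidneys and 26.9 to 35.8 in livers (−2.06 and −0.82). By library size alone Ezh1 was at −0.07 against liver, so its lower value there was relative to the TMM centre.

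DNA methylation enzymes split likewise. Dnmt1 was higher in fibroblasts (0.39, SE 0.14, and 0.95, SE 0.14). Its call against kidney was lost without DMSO fibroblast replicate 2 (0.23, adjusted p = 0.146, edgeR), without DMSO kidney replicate 4 (0.34, adjusted p = 0.0549) and by library size alone (0.11, adjusted p = 0.51). Dnmt3a was lower (−1.69 and −1.05) and Dnmt3b, at 0.998, 0.733 and 0.276 CPM, was lower (−2.40 and −4.29). Tet2 had 1.96, 3.19 and 2.81 CPM in fibroblasts, 58.2, 45.6, 40.6 and 60.5 in kidneys and 27, 28.7, 16.8 and 33.2 in livers (−4.27, SE 0.26, and −3.32, SE 0.25). Tet3 was lower against both (−1.59 and −1.53), and Tet1 lower than kidney (−1.11, but −0.72 with adjusted p = 0.057 by edgeR once the length and GC trend was removed) but higher than liver (2.77). Dnmt3l, with 359 reads, was at least 139-fold higher than in liver. Kdm5d, the Y-linked gene, was at least 154.59-fold higher than in kidney and 166.96-fold than in liver, both against a floor of 3 reads over the tissue group. The mice that gave the tissues were female. The labels do not give the sex of the fibroblast donors, but each DMSO fibroblast library had 106 or more Kdm5d reads and each 3C one 114 or more. These cultures thus held cells with a Y chromosome, and the Kdm5d difference from the tissues is one of sex as well as of cell type.

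Setd4 and Kat2b were again among the smallest p-values. Setd4 had 3.84, 3.67 and 2.92 CPM in fibroblasts, 13.8 to 15.2 in kidneys and 34.0 to 39.8 in livers (−2.07 and −3.40). Kat2b had 16.7, 15.9 and 15.5 CPM in fibroblasts, 42.2 to 44.5 in kidneys and 86.7 to 103 in livers (−1.43 and −2.57).

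3C was compared with DMSO in fibroblasts, kidney and liver. In fibroblasts no member was called higher or lower of 70 by edgeR, where 2.43% of all genes were higher and 1.78% lower. At an unadjusted p under 0.05 there were 18 (25.7%, beside 20.2% of all genes), and DESeq2 called 2 higher, where it called 4.29% of all genes. The median of the members was 0.190 and 54 lay above 0, beside 0.007 for all genes. Above 0 were 16 of 17 lysine demethylases, 16 of 20 lysine methyltransferases, 7 of 8 acetyltransferases, 8 of 11 deacetylases and all 3 Tet genes, but 1 of 7 arginine methyltransferases, whose median was −0.322. The cycling markers summed to 88.38 to 94.412 CPM with 3C, below the DMSO range, and their part was not tested.

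Hdac11 had 15.6, 18.7 and 19.6 CPM with DMSO and 27, 31.6 and 23.1 with 3C (log2 0.60, SE 0.15, adjusted p = 0.0564, edgeR). Kdm4b, an H3K9 demethylase, had 22.1, 27.5 and 25.3 CPM with DMSO and 34.0, 37.3 and 32.5 with 3C (0.47, SE 0.13, adjusted p = 0.0676). Prmt1 had 242, 209 and 247 CPM with DMSO and 161, 167 and 202 with 3C (−0.40, SE 0.13, adjusted p = 0.117). None of these groups overlapped, and none passed the edgeR test. DESeq2 called Hdac11 (adjusted p = 0.016) and Kdm4b (adjusted p = 0.0337). Hdac11 was also called by edgeR without the filter on low counts (adjusted p = 0.0268), with the length and GC trend removed (adjusted p = 0.0381) and without 3C replicate 3 (adjusted p = 0.03), and Prmt1 and Prmt5 with the trend removed (adjusted p = 0.048 and 0.0314).

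In kidney and liver of animals given 3C no member was called by edgeR or DESeq2, where edgeR called 0% of all genes in either direction and DESeq2 0.45% higher and 1.01% lower in kidney, and 0.0307% and 0.0153% in liver. In kidney 5 of 68 (7.35%) and in liver 2 of 67 members (2.99%) had an unadjusted p under 0.05, beside 11.9% and 3.34% of all genes. The smallest p in kidney was that of Kdm6a (0.20, SE 0.06, adjusted p = 0.25) and in liver that of Kmt2a (0.52, SE 0.19). The medians of the members were 0.015 and 0.041.

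A further 48 genes of the same machinery that the symbol rule leaves out, such as Ep300, Nsd1, Dot1l and the subunits of PRC2, NuRD and the COMPASS complexes, were read the same way. In old kidney 2 of 47 fell, Jarid2, a PRC2 subunit (−0.75, adjusted p = 0.00894, edgeR), and Dot1l, the H3K79 methyltransferase (−0.69, adjusted p = 0.0306), and 0 rose, where 3.36% of all genes fell and 8.15% rose. Jarid2 was the 1 gene called by library size alone, and without old kidney replicate 2, 14 fell and 0 rose, where 12.2% and 11.5% of all genes did. In old kidney with the length and GC trend removed 1 was higher and 3 lower, among Dot1l, Jarid2, Suz12 and Uhrf1, beside 10.1% and 7.5% of all genes. In old liver and in the interaction none was called, except Nsd3, which was lower in both with that trend removed. In young tissue 10 of 47 were higher and 6 lower in kidney, where 35.1% and 30.2% of all genes were, and in DMSO tissue 12 and 13 of 48, where 37.5% and 32.8% were. All 47 were higher in young kidney by library size alone, and 47 higher and 0 lower in DMSO kidney, while with the length and GC trend removed 9 were higher and 21 lower in young, and 9 and 27 in DMSO kidney. In fibroblasts 17 were higher and 24 lower against kidney, beside 35.8% and 43.5% of all genes, and 18 and 25 against liver, beside 38.4% and 40.8%. These became 15 and 29, and 26 and 8, by library size alone. The acetyltransferases Crebbp (−1.77 and −1.67) and Ep300 (−1.35 and −0.89) were lower, and Uhrf1, which guides Dnmt1 to newly copied DNA, was higher (1.31 and 3.37). With 3C in fibroblasts Ncoa3, a nuclear receptor coactivator, was higher (0.62, adjusted p = 0.0372) and 0 were lower, and in 3C kidney and liver none was called.

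Open chromatin was read at the promoters of the same genes. The value is the highest fold enrichment over background of a called peak within 1 kb of a RefSeq start site. Only genes with a peak in all 6 libraries of a comparison were tested, by limma on the log2 scale after centring each library on its median. The members were mostly open: 91.8% had such peaks in kidney, against 55.9% of all genes, and 86.3% in liver, against 49.7%. Kdm5d and Prmt8 had no peak in kidney, and Dnmt3l and Kdm6b also had none in liver. No member had a peak in all libraries of one group and in none of the other.

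In kidney 6 of 67 members had higher and 1 lower promoter enrichment in old animals, where 4.15% and 3.96% of all promoters tested did, and 18 had an unadjusted p under 0.05, beside 27.1% of all promoters. Kmt5c, the H4K20 methyltransferase with the E2F letters shown above, had the smallest p. Its enrichment was 5.03, 5.72 and 3.82 in young kidneys and 8.41, 7.36 and 9.39 in old ones, so that each old library lay above each young one (log2 0.73, SE 0.14, adjusted p = 0.0158, limma). Ezh2, which also carries the E2F letters, had 8.75, 7.14 and 6.05 in young and 11.7, 11.1 and 12 in old kidneys (0.61, SE 0.14, adjusted p = 0.0248). Their RNA did not follow: Kmt5c was at −0.14 (SE 0.15, adjusted p = 0.535, edgeR), or lower at −0.34 (adjusted p = 0.0333) with the length and GC trend removed, and Ezh2 at −0.19 (SE 0.20, adjusted p = 0.562).

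Prmt1 had 6.63, 5.94 and 4.97 in young and 8.37, 8.79 and 9.03 in old kidneys (0.52, adjusted p = 0.0326, limma), with RNA at 0.31 (SE 0.13, adjusted p = 0.153, edgeR). Kdm4b (0.51), Kdm4d (0.50) and Kmt2e (0.50) were also higher. The Kdm4d start site lies 137 bases from that of Cwc15 the Kmt2e start site 111 bases from that of 5031425E22Rik and the Prmt1 start site 480 bases from that of Gm15545, and a peak there cannot be given to 1 gene of the pair. Kat2a, an acetyltransferase of the GCN5 family, was lower, with 4.24, 4.67 and 5.01 in young and 2.09, 3.32 and 3.68 in old kidneys (−0.72, SE 0.19, adjusted p = 0.0432). The peak that gave the lowest of these values, chr11:100713190-100714141, was not the one used in the other old kidneys.

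These calls were not steady. Leaving out any 1 library took the 6 higher to between 0 and 3 and the lower 1 to 0 or 1. Without centring, 2 were higher and 0 lower, beside 2.84% and 1.53% of all promoters. The pair called by RNA was not among them: Kmt5a had 4.88, 5.66 and 5.44 in young and 7.56, 6.97 and 9.02 in old kidneys (0.49, SE 0.14, adjusted p = 0.0521, limma), against a fall in its RNA, and Setd4 was at −0.13 (adjusted p = 0.618).

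**Figure D5:**
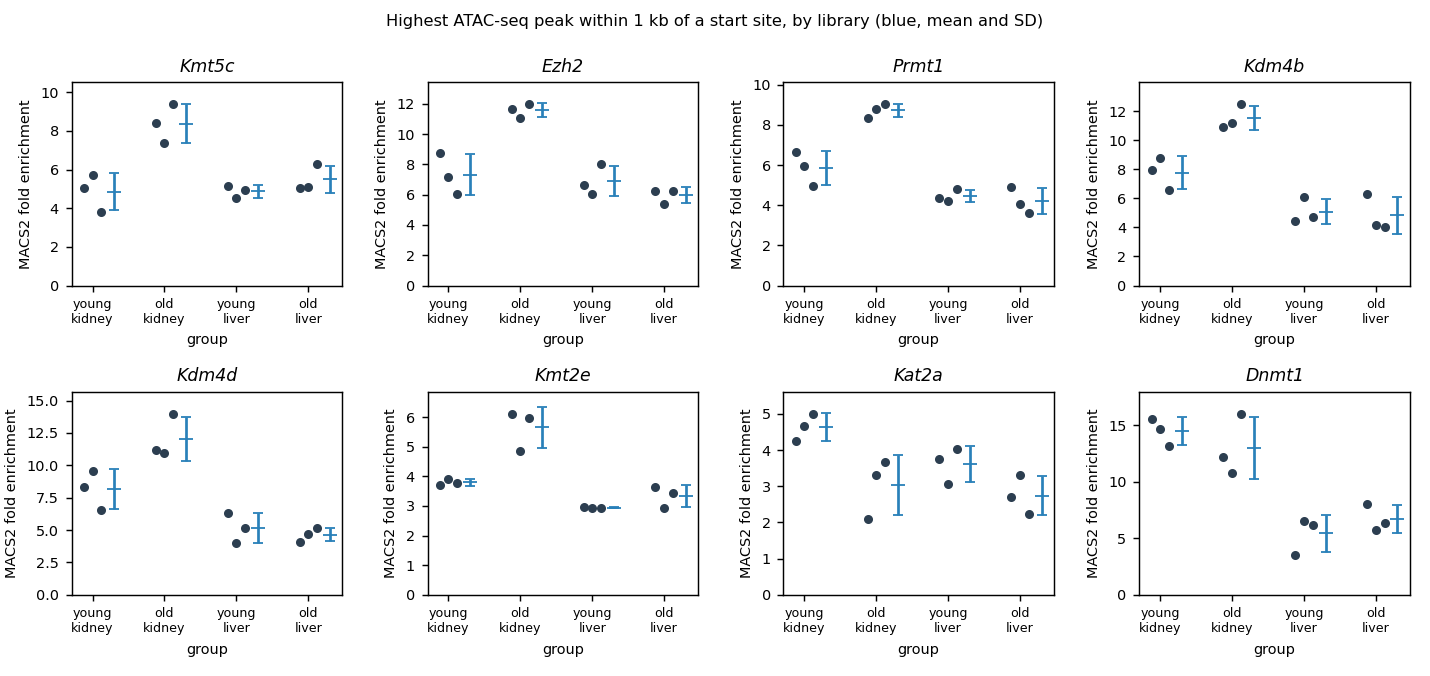
Highest fold enrichment over background of a called peak within 1 kb of the start site in each ATAC library (points), for members called in a promoter comparison. Old kidneys lie above young ones for Kmt5c, 7.36 to 9.39 against 3.82 to 5.72, and Ezh2, 11.1 to 12 against 6.05 to 8.75, and below for Kat2a.

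In liver no member promoter of 63 was called (limma), where 0.00809% of promoters were higher and 0.113% lower, and 3 had an unadjusted p under 0.05, beside 11.8% of all. Between young kidney and young liver, 1 of 64 was higher in kidney and 3 lower (5.69% and 9.01% of all promoters). Dnmt1 had 15.6, 14.7 and 13.2 in kidneys and 3.54, 6.57 and 6.21 in livers (0.97, SE 0.22, adjusted p = 0.011, limma), and its RNA was higher in kidney too, though at −0.07 with the length and GC trend removed. With the annotated 5′ end of the gene alone, or at a −log10 q of at least 5, Dnmt1 did not have a peak in all 6 libraries and was not tested. Dnmt3a (−0.51), Hdac10 (−0.67) and Kmt5c (−0.52) were lower relative to the centre of each library. Without centring 36 members were higher in kidney and 0 lower, where 51.4% and 1.2% of all promoters were, and these 3 lost their call, at −0.01, −0.17 and −0.02.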

How the data were processed

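RNA was measured by RNA-seq and open chromatin by ATAC-seq. According to the study's methods and the submitters' processing notes, the authors trimmed reads with Trimmomatic 0.39, aligned RNA to mm10 with HISAT2 2.2.1 and counted reads per gene without strand with HTSeq 0.12.4. These deposited counts were used as raw counts. Rows of reads outside genes held 5.697% to 19.109% of a library and were left out. ATAC reads were aligned with Bowtie2 2.3.5.1, and the authors called peaks per library with MACS2. The deposited peak files give the fold enrichment ratio over background and −log10 p-values and q-values, and no depth, so the depth of the ATAC libraries is unknown.

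Counts were tested in R 4.3.3 with edgeR 4.0.16 (quasi-likelihood, TMM, filterByExpr with a minimum count of 10), per comparison, with Benjamini-Hochberg adjustment over all genes and a threshold of 0.05. DESeq2 1.42.0 was an alternative. Promoter peaks were tested with limma 3.58.1. Fold changes are log2. TPM were counts divided by RefSeq exon length, found for 24863 of 24984 genes. Floors and counts cover counting error only. The tests recovered known changes in simulated data, planted at a fold of 4 in 200 genes. This does not measure their power for smaller changes.

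Named were members called in an age, interaction, 3C or promoter comparison, up to 10 per direction in the tissue and fibroblast comparisons, a list of followed members, and the 5 with the highest TPM per group. Others, such as Prmt9 and Setd6, were named after their values were seen. The members and lists were chosen with earlier results of these data known. Library size alone, and the trend removal without old kidney replicate 2, were alternatives chosen after seeing the data, as were those for the 48 related genes. In young kidney and young liver all 4 same-numbered pairs deviated together (correlations 0.12, 0.219, 0.104 and 0.452). Replicates 2 of young and old mice, which are different animals, reached 0.285 in kidney and 0.334 in liver. The correlations therefore cannot show that the numbers pair samples. The unblocked fit is the one reported unless stated. No pair of replicates was near identical (smallest chi-square per degree of freedom 8.12 over 54 pairs).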

Additional observations from a re-analysis of the deposited data

Results flagged for a closer look

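In 192 groups of 4 libraries, 8 values stood apart from the others by Dixon's criterion, and chance alone gives about 1 in 20. In young liver replicate 3 Ezh2 was high, at 4.64 CPM where the others had 2.71 to 2.89. In old liver replicate 4 Ezh2 was low, at 0.964 CPM beside 2.35 to 2.63. Kmt5a was low in DMSO kidney replicate 3, at 88.7 CPM beside 92.4 to 92.7, and in 3C kidney replicate 1, at 91.5 CPM beside 103 to 104. Setd4 was low in DMSO kidney replicate 4, at 18.6 CPM beside 20.2 to 20.4. The log2 ratio of acetylation writers over erasers was low in 3C kidney replicate 1, at −1.28 beside −1.17 to −1.16. The ratio for lysine methylation was high in old liver replicate 1, at 1.25 beside 0.58 to 0.63, and in young liver replicate 4, at 1.35 beside 0.66 to 0.75.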

How the results depend on the processing

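For the single members followed under each alternative, 4042 of the values counted as unchanged. Called ones stayed called in the same direction, and uncalled ones stayed uncalled and within the SE of the main fit. Of the rest, 46 gained and 108 lost the call, 28 uncalled values moved by more than that SE, and 7 turned in direction with a call in either fit. Turns of sign among values uncalled in both fits were not counted. All 7 turned with the length and GC trend removed: Kdm6b (−0.14), Dnmt1 (−0.073) and Tet3 (−0.44) in young kidney against liver, Kmt2a (−0.0042), Tet3 (−0.63) and Kdm6b (−0.47) in DMSO kidney against liver, and Kdm6b (−0.80) in fibroblasts against liver. The cause was not tested.

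Counts of members that moved by over 1.5 times were these. No share of all genes was computed for a fold over 2, the filter, the stricter q or the 5′ end. Nor was it for single libraries left out, other than old kidney replicate 2. Those counts describe the members and are not set against a background. In old kidney the lower count was 0 with a fold over 2 required, 6 with DESeq2, 3 with the trend removed, and 6 with the trend removed and old kidney replicate 2 left out. Leaving out 1 library gave 0 to 1 higher and 0 to 20 lower, with 20 without old replicate 2 and 3 without young replicate 4. In old liver the trend removal gave 2 lower, and in the interaction DESeq2 and the trend removal each gave 1 higher. Young kidney against liver had 10 higher and 4 lower with a fold over 2, 25 lower with the trend removed, 60 and 0 by library size alone, and 18 to 28 and 7 to 10 without 1 library. DMSO kidney against liver had 7 and 4, 29 lower, 63 and 2, and 20 to 25 and 14 to 17 likewise. Fibroblasts had 7 higher and 22 lower than kidney with a fold over 2 and 14 higher by library size alone, and 17 lower than liver with a fold over 2 and 38 and 12 by library size alone. With 3C in fibroblasts 2 were higher by DESeq2 (4.29% of all genes) and 1 without the filter on low counts. With the trend removed 1 was higher and 2 lower (3.87% and 3.61% of all genes). Without 1 library 0 to 3 were higher (3 without 3C replicate 3). For kidney promoters with age, 2 were higher and 0 lower without centring, 0 lower at a −log10 q of at least 5, and 0 to 3 higher and 0 to 1 lower without 1 library. For young kidney against young liver promoters, 36 were higher and 0 lower without centring, 2 higher at the stricter q, 0 higher with the 5′ end of the gene only, and 1 to 3 higher and 0 to 2 lower without 1 library; the 3 lower promoters went to 0 without kidney replicate 1 or 2 or liver replicate 3.

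Outside young tissue pairing was not shown either: the correlations of same-numbered samples ran from −0.28 to 0.285 between young and old kidney. There a replicate block took the higher and the lower count of old kidney to 0 and 0 and the higher kidney promoters to 2, and Kdm6b and Setd2 lost their call in fibroblasts against kidney. In young kidney against liver it gave 33 higher and 10 lower, beside 38.2% and 33% of all genes. It changed no RNA call of a followed member beyond the 5 given, and the Kmt5c promoter lost its call there.

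The writer over eraser ratios moved as follows. With the median of log2(TPM + 1) in place of the sum, DNA methylation read −0.34, 0.046, −0.52 and −0.48 in young, old, DMSO and 3C kidney, 0.32, 0.54, 0.15 and −0.019 in liver, and 1.61 and 1.18 in DMSO and 3C fibroblasts. Acetylation read −0.83, −0.69 and −0.97 in young, old and DMSO kidney, 0.28, −0.064, −0.26 and −0.33 in liver and 0.091 and −0.42 in fibroblasts. Lysine methylation read 0.036, 0.022, 0.64 and 0.38 in kidney, 0.086, 0.11, 0.56 and 0.65 in liver and 0.082 and 0.12 in fibroblasts. Without the highest member of each total, DNA methylation read 0.77 and 0.74 in DMSO and 3C kidney, 2.02, 2.31 and 1.01 in young, old and 3C liver and 3.32 and 2.51 in fibroblasts, acetylation −1.81 in 3C fibroblasts, and lysine methylation 0.60, 0.68, 0.83 and 0.86 in kidney and 0.34, 0.24, 0.77 and 0.71 in liver. Prmt8, Kdm4d and Dnmt3aos in each RNA comparison, and Tet1 in the liver age and 3C comparisons, fell below the filter on low counts, so no test was made there.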
